A study of Mus musculus with 16 samples.

Results

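The comparison described here set the 4 wild-type arrays of a mouse series against its 12 knockout arrays, which together are all 16 arrays of the series. Members were taken by title: the arrays titled WT form one arm, and those titled STAT4-/-, STAT6-/- or HDC-/- (4 arrays each) form the other. Each array carried RNA of CD11b+ cells, the surface integrin that marks neutrophils, monocytes and other myeloid cells, isolated from spleen or bone marrow of mice labelled male, fed either a control diet or, for 3 months, a high-fat one. Every genotype was read once in each of the 4 combinations of tissue and diet, from an RNA pool of 5 mice. STAT4 and STAT6 are transcription factors that act downstream of the interleukin-12 and interleukin-4 receptors, and HDC is the enzyme that forms histamine. The strain and colony of the mice, and the exons deleted in each line, are not given in the sources used here. Whether the 3 knockout lines and the wild type had the same background, cages or litters therefore cannot be told apart from the loss of the genes, since 1 wild-type group stood against all 3 lines.

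The comparison asks which genes differed from wild type in the same way in all 3 knockouts. Inbred mouse strains are known to differ in whether they express single members of duplicated gene clusters, such as the oligoadenylate synthetases, class Ib histocompatibility genes and NLR inflammasome sensors, and in copy number of segments such as the one holding Glo1. Interferon-induced genes, oligoadenylate synthetases among them, also vary with the immune state of a mouse, and they tend to move together. Which of these applies to the genes below was not tested.

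Levels below are log2 signals of a gene's brightest probe, minus the 75th percentile of the array, and differences are knockout minus wild type from limma with tissue and diet in the model. A feature was called at an adjusted p under 0.05 (Benjamini-Hochberg over 28783 features, 18665 of them with a gene symbol). Between 59.8% and 85.2% of probes were well above background on an array, the 4 marrow arrays of STAT6-/- and HDC-/- having the lowest shares (59.8% to 68.7%), and no spot was saturated. Hdc was low on the 4 arrays labelled HDC-/- (0.98 to 1.92) and high on the other 11 with a usable spot (4.06 to 5.79). Stat6 read 2.54 to 3.04 on the arrays labelled STAT6-/- and 3.44 to 4.14 on the wild-type arrays, but it was as low on some arrays of other labels, among them the control-diet arrays labelled STAT4-/- (2.57 in spleen and 2.34 in marrow). For Stat4, the arrays labelled STAT4-/- read 0.41 to 3.51, against 0.17 to 1.33 in wild type, so that these arrays are named by label only. Itgam, which encodes CD11b, overlapped between the arms (3.81 to 5.97 in wild type, 3.13 to 6.06 in knockout; difference 0.16, SE 0.39). The Y-linked genes, looked up as a check on labelled sex, averaged -8.39 to -5.57 on the control-diet arrays labelled STAT4-/- and HDC-/-, and -0.62 to 0.35 on the other 12 arrays, all 4 wild-type arrays included. The level of Xist, the RNA that coats the silenced X in female cells, lay between -4.20 and -2.93 there, against -9.26 to -5.44 for the remaining 12 arrays, so the labelled sex was not borne out by these genes on 4 arrays. A further pair of arrays stood apart from its tissue: the B cell list averaged -0.69 on the high-fat spleen array labelled STAT4-/- (1.76 to 2.93 on the other spleen arrays) and 0.69 on control-diet HDC-/- marrow (-2.77 to -0.30 on the other marrow arrays). The slides, as the scan times group the arrays, carried wild type with STAT4-/- and STAT6-/- with HDC-/-, separately for each tissue, so only the arrays labelled STAT4-/- shared slides with wild type.

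Few genes separated wild type from the knockouts. With limma, 14 features were called, which is 0.0486% of all features tested; 7 were higher in the knockouts (0.0243%) and 7 lower (0.0243%). Under median scaling the split was 6 higher and 17 lower, and with normexp background correction 6 higher and 16 lower. At an unadjusted p under 0.05, 1422 features passed (4.94%). All 14 called features changed at least 2-fold, and in all 14 each of the 12 knockout arrays lay on the same side of the wild-type array of its own tissue and diet; 396 of all features (1.38%; 178, or 0.618%, higher and 218, or 0.757%, lower) did the latter. These 12 differences share 4 wild-type arrays. In 12 of the 14, no knockout array overlapped with any wild-type array, whatever its tissue or diet, as was so for 39 of all features (0.135%). The median difference over all features was 0.04.

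The genes higher in the knockouts were led by the 2'-5'-oligoadenylate synthetases Oas1a, Oas1f and Oas1g, members of a tandem cluster on chromosome 5. The family is known for interferon-induced enzymes that sense double-stranded RNA and switch on RNase L. The other 4 were Ctps2, one of the CTP synthases (chromosome X), Ubtd1, a ubiquitin-domain protein (chromosome 19), Glo1, the glyoxalase that detoxifies methylglyoxal (chromosome 17), and Rpl39l, a paralogue of a ribosomal protein gene (chromosome 16). The genes lower in the knockouts were the class Ib histocompatibility gene H2-Q8 (chromosome 17), the predicted gene Gm10421 (chromosome 12), C130026I21Rik (chromosome 1), the inflammasome sensor gene Nlrp1a (chromosome 11), the guanylate-binding protein gene Gbp2 (chromosome 3), and 2 probes that carry no symbol.

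The promoters of the 3 raised Oas1 genes and of Gbp2 are shown because these interferon-related genes moved in opposite directions. They are RefSeq promoter sequences of the GRCm38.p6 reference, from 250 bases before to 50 after the start site, 5′ to 3′ along the gene's strand, and not sequences of the mice studied. Capitals mark the letters GAAA, any 2 bases and GAAA again, a core of interferon-response elements, searched on both strands, and matches may overlap. The stretch in Oas1a lies at chr5:120907476-120907775 on the minus strand, that of Oas1g at chr5:120887564-120887863 on the minus strand, that of Oas1f at chr5:120847117-120847416 on the plus strand and that of Gbp2 at chr3:142620413-142620712 on the plus strand.
Oas1a: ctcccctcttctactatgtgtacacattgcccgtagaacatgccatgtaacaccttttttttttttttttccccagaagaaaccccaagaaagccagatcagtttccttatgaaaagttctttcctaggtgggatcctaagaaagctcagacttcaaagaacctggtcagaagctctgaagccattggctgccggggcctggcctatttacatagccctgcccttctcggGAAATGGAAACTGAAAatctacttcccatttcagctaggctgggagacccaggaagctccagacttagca
Oas1g: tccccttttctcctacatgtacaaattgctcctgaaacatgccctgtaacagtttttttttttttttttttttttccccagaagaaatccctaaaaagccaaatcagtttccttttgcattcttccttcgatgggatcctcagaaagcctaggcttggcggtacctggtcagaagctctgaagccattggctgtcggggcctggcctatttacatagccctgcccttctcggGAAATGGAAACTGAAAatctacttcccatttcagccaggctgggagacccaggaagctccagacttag
Oas1f: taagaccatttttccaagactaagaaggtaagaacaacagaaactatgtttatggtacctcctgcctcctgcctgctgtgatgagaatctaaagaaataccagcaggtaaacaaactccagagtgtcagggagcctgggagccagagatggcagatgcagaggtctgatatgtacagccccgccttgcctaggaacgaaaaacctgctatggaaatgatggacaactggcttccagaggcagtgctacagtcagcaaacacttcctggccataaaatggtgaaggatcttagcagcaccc
Gbp2: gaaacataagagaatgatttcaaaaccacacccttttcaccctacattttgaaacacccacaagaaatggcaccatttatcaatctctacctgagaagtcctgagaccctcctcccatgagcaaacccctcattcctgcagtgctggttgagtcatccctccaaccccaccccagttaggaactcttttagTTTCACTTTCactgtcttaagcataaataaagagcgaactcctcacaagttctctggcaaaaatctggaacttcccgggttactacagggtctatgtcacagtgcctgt
Oas1a and Oas1g hold 2 overlapping matches each, at positions -20 and -14 in Oas1a and -18 and -12 in Oas1g, counted from the start site to the first base of the match. Gbp2 holds 1 match at position -59, on the opposite strand. These letters are not in the Oas1f window. Of 32851 promoters in the table, 1131 (3.44%) hold the motif, as do 3 of the 11 called genes with a promoter in the table. A STAT-type motif, TTC and GAA with any 3 bases between them, is held by 2726 promoters (8.3%) and by 1 of the 11, Oas1a, where it overlaps no capital.

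Oas1a was the gene that set the arms furthest apart. On the wild-type arrays it read -7.90 and -6.86 in spleen (control diet, then high-fat diet) and -6.56 and -6.95 in marrow, not well above background on any of the 4. On the 12 knockout arrays, all well above background, it ran from 2.79 through a median of 3.59 to 5.42. The smallest gap between a knockout and a wild-type array was 9.35, and the levels were highest on the control-diet arrays labelled HDC-/- (5.42 in spleen and 4.86 in marrow). The fitted difference was 10.74 (SE 0.42, limma adjusted p 2.71e-09). Against the lowest signal among probes above background on each wild-type array, or the probe's own signal where higher, the knockouts were at least 1305-fold higher. A second Oas1a probe differed by 8.05 (SE 0.54), called in the fit of all 34449 probes, so both probes of the gene gave the same direction.

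Oas1f, in contrast, was above background on all 16 arrays. Wild type read -4.15 and -3.01 in spleen and -2.94 and -2.87 in marrow, and the knockouts 1.17 to 3.84 (median 1.84), with no overlap. The difference was 5.30 (SE 0.40, limma adjusted p 1.05e-05), or 39.3-fold. Oas1g was dim throughout and not well above background on any wild-type array. It read -9.13 to -6.99 there and -6.18 to -3.23 (median -5.35) on the knockout arrays, a difference of 3.35 (SE 0.47, adjusted p 0.00831) and a bound of at least 3.26-fold. With normexp correction, which adds an offset of 50 to each signal, the Oas1g difference was 0.68 and was not called. The Oas1g call was also lost, at adjusted p 0.0751 to 0.101, without wild-type spleen on either diet or without wild-type marrow on the high-fat diet.

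The other measured genes of the cluster did not go with these 3 genes. Oas1h, which lies between Oas1f and Oas1g, differed by 0.34 (SE 0.58), Oas1e by 0.33 (SE 0.20), Oas1c by 0.09 (SE 0.25) and Oas1d by -0.31 (SE 0.44). The Oas1h probe was dim, well above background on 9 of the 16 arrays. Oas2 and Oas3, the larger synthetases at the cluster's edge, had lower means in the knockouts, by -0.85 (SE 0.38) and -0.91 (SE 0.44), and were not called (adjusted p 0.98 for both). Rph3a, at the other edge, differed by 1.44 (SE 0.45, adjusted p 0.762). Only Oas1g and Oas1a, which adjoin each other, formed a run of called neighbours among the measured genes of any chromosome. The probes of these paralogues may share target sequence, and which of the copies each probe reads was not tested.

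**Figure D1:**
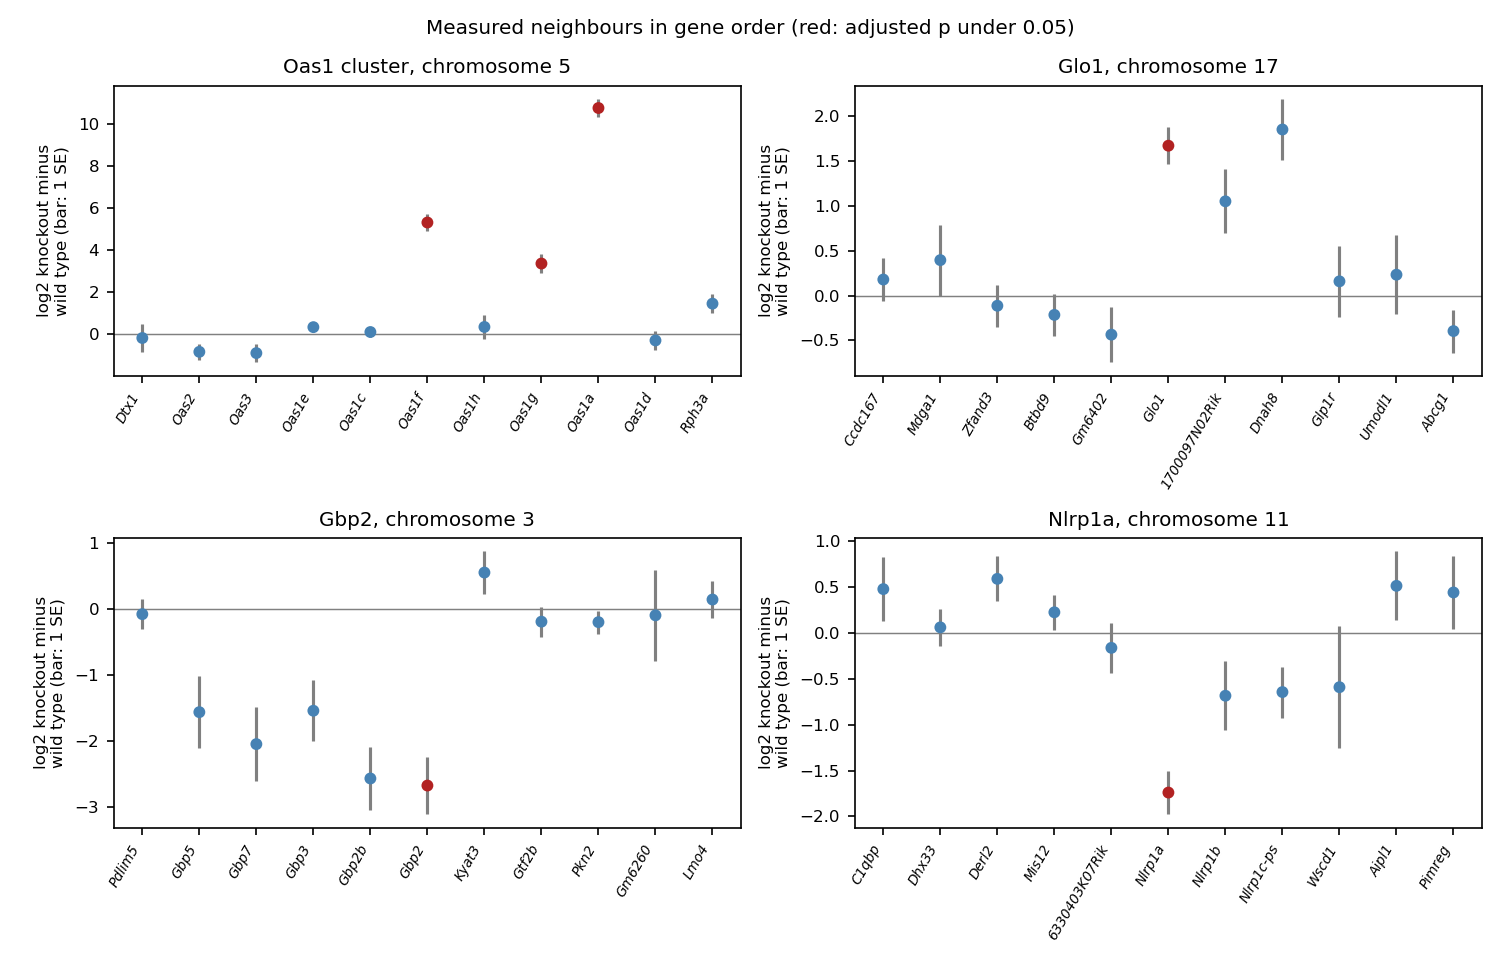
Differences between knockout and wild type (log2, y axis; bars 1 SE) for the called gene of each panel and the measured genes up to 5 places on either side in gene order (x axis). Red marks an adjusted p under 0.05: in the Oas1 cluster Oas1f, Oas1g and Oas1a stand at 5.30, 3.35 and 10.74, whereas their neighbours run from -0.91 (Oas3) to 1.44 (Rph3a) without a call, and beside Glo1 the gene Dnah8 stands at 1.85 without a call.

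Ctps2 had the smallest error of the called genes. Wild-type arrays read -0.57 and -0.52 in spleen and 0.07 and 0.06 in marrow, and the knockouts 2.36 to 3.87 (median 2.86). No knockout array came within 2.29 of a wild-type array, and the difference was 3.21 (SE 0.19, limma adjusted p 6.18e-07; 9.28-fold). A second Ctps2 probe gave 2.18 (SE 0.30) and was called among all probes. Its nearest measured neighbours on chromosome X, Syap1 at -0.06 and S100g at 0.48, were not called. The difference was 3.24 (SE 0.20) with slide as a random block.

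Ubtd1 read -4.29 and -3.95 on the wild-type spleen arrays and -3.23 and -2.39 on the marrow arrays, against -1.60 to 1.18 (median -0.38) on the knockout arrays. The arms did not overlap, though the lowest knockout level and the highest wild-type level were only 0.79 apart. The difference was 3.17 (SE 0.32, adjusted p 0.000263; 8.99-fold). Rpl39l was also dim, at -6.01 to -4.91 in wild type and -4.17 to -2.01 (median -3.26) in the knockouts. Its difference of 2.22 (SE 0.37, adjusted p 0.0445) lay close to the threshold. The Rpl39l call held when either control-diet HDC-/- array or the control-diet marrow array labelled STAT4-/- was left out, and was lost, at adjusted p up to 0.244, without any 1 of the other 13. With normexp its difference was 1.04 (adjusted p 0.736). It was the one called gene among 96 cytosolic ribosomal protein genes, whose median was 0.07 (0.0243% of all features were called higher).

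Glo1 read 0.89 and 0.82 in wild-type spleen, 0.68 and 0.12 in wild-type marrow and 1.47 to 2.94 (median 2.25) in the knockouts. No knockout array reached down to the wild-type range. The difference was 1.67 (SE 0.21, limma adjusted p 0.00234), or 3.18-fold; it was 1.35 (adjusted p 0.0578) and not called with slide as a fixed block. Dnah8, an axonemal dynein gene 2 places further on, differed by 1.85 (SE 0.34) with all 12 matched differences positive, at an adjusted p of 0.0807 that was not called. Its 3 probes gave 1.73 to 1.95. The gene between them, 1700097N02Rik, differed by 1.05 (SE 0.36, adjusted p 0.898), and the next gene beyond, Glp1r, by 0.16. On the other side, 1 of 3 probes of Btbd9 gave 1.77 (SE 0.43, adjusted p 0.401 among all probes) and the other 2 gave -0.09 and -0.22. Glo1 was the only called gene among the 11 measured of 16 genes listed as variable between mouse strains (0.0243% of all features were called higher). The list was chosen with earlier results of these data known. Of the 11 differences, 8 were negative, and their median was -0.30 beside 0.04 over all features.

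**Figure D2:**
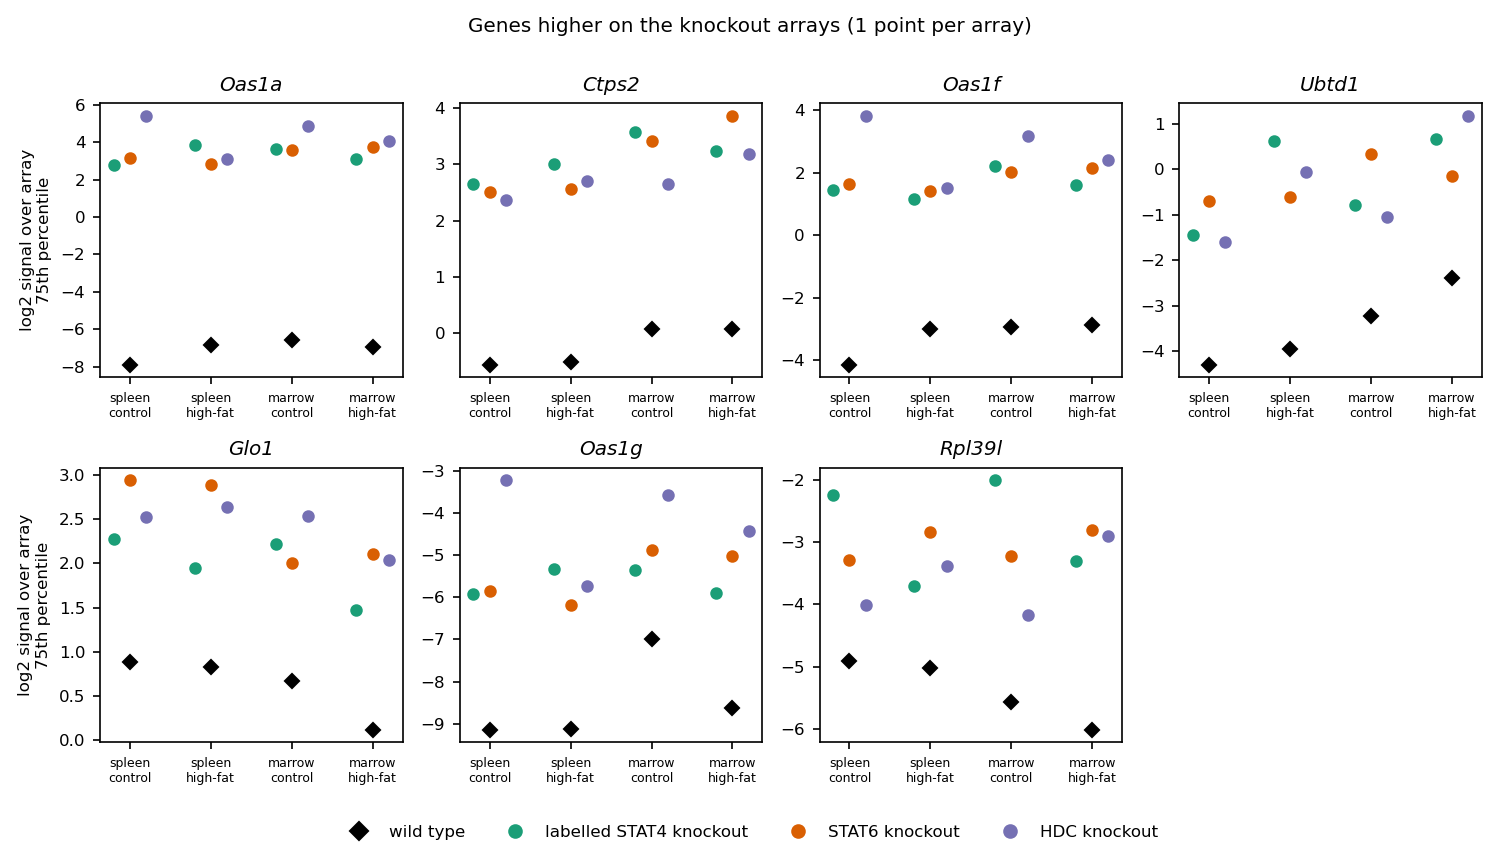
Levels (log2 signal over the 75th percentile of the array, y axis) of the 7 genes called higher in the knockouts, by tissue and diet (x axis), with 1 point per array. Black diamonds, the wild-type arrays, lie below every knockout array in each panel, from a gap of 9.35 for Oas1a to 0.58 for Glo1.

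H2-Q8 led the genes lower in the knockouts by p-value. Its wild-type levels were 3.24 and 3.48 in spleen and 2.81 and 2.58 in marrow, and the knockout levels -2.28 to 0.84 (median -0.86). The arms did not overlap, and the difference was -3.78 (SE 0.29, limma adjusted p 1.09e-05; 13.7-fold lower). Among 30 measured H2 genes, the histocompatibility family that presents peptides to T cells, H2-Q8 alone was called (0.0243% of all features were called lower). All 12 matched differences were negative in 4 of the 30 (0.757% of all features), and the family's median was -0.43 against 0.04 over all features. Its close relatives differed less, H2-Q6 by -0.95 (SE 0.28), H2-Q7 by -0.47 (SE 0.20) and H2-Q10 by -1.01 (SE 0.28), and H2-Q4 by 0.31 (SE 0.22). The H2-Q genes are near-identical in sequence, so a probe of one may also read others.

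Gm10421 showed the largest fall. In wild type it read -0.50 and -1.54 in spleen and 1.00 and 0.48 in marrow, above background on all 4 arrays. In the knockouts it ran from -8.53 to -5.04 (median -6.37) and was above background on 8 of 12 arrays. The difference was -6.50 (SE 0.67, limma adjusted p 0.000323). Its size rests partly on dim signals, and in marrow the STAT6-/- and HDC-/- arrays (-8.53 to -7.64) lay below those labelled STAT4-/- (-5.73 and -5.21). Of the 14 called features, Gm10421 had the lowest p for a difference between the tissues, with an interaction of 3.03 (SE 1.13, spleen minus marrow, adjusted p 0.0985).

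C130026I21Rik read 1.45 and 0.90 in wild-type spleen and 2.91 and 2.27 in wild-type marrow, against -1.51 to 0.68 (median -0.10) in the knockouts. The lowest wild-type and the highest knockout array were 0.22 apart, and within each tissue the gap was wider. The difference was -2.14 (SE 0.26, limma adjusted p 0.00187); a second probe gave -1.36 (SE 0.26, adjusted p 0.11 among all probes) with all 12 matched differences negative. Its measured neighbours on 1 side, Sp110, Sp140 and Sp100, genes of nuclear body proteins, differed by -0.10, -0.25 and -0.35 and were not called. On the other side, Gm7609 differed by -0.75 (SE 0.26) and A530032D15Rik by -0.85 (SE 0.31), also without a call. All 12 matched differences were negative for A530032D15Rik. The next genes on that side, Fbxo36 and Trip12, differed by 0.41 and 0.30.

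Nlrp1a read 5.31 and 5.08 in wild-type spleen, 5.29 and 4.55 in wild-type marrow and 2.80 to 4.11 (median 3.29) in the knockouts, with no overlap. The difference was -1.74 (SE 0.24, limma adjusted p 0.00758). A second, much dimmer Nlrp1a probe gave -0.64 (SE 0.32, adjusted p 0.972), so the probes shared a direction but not a call. The adjoining copies Nlrp1b (-0.69, SE 0.38) and Nlrp1c-ps (-0.65, SE 0.28) were not called. Nlrp1a was the only called gene among 24 measured genes of the NLR family (0.0486% of all features were called), whose median was -0.05; all 12 matched differences were positive in 2 of the 24 and negative in 2. Its call was lost at adjusted p 0.079 to 0.0894 without wild-type spleen on either diet or wild-type marrow on the control diet. Of the 2 unnamed probes, A_55_P2011567 differed by -1.98 (SE 0.20) without overlap and A_55_P1962688 by -2.41 (SE 0.37) with overlap. The latter kept its call in 9 of 16 fits that left out 1 array (adjusted p up to 0.184), and with normexp its difference was -0.93 (adjusted p 0.53).

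**Figure D3:**
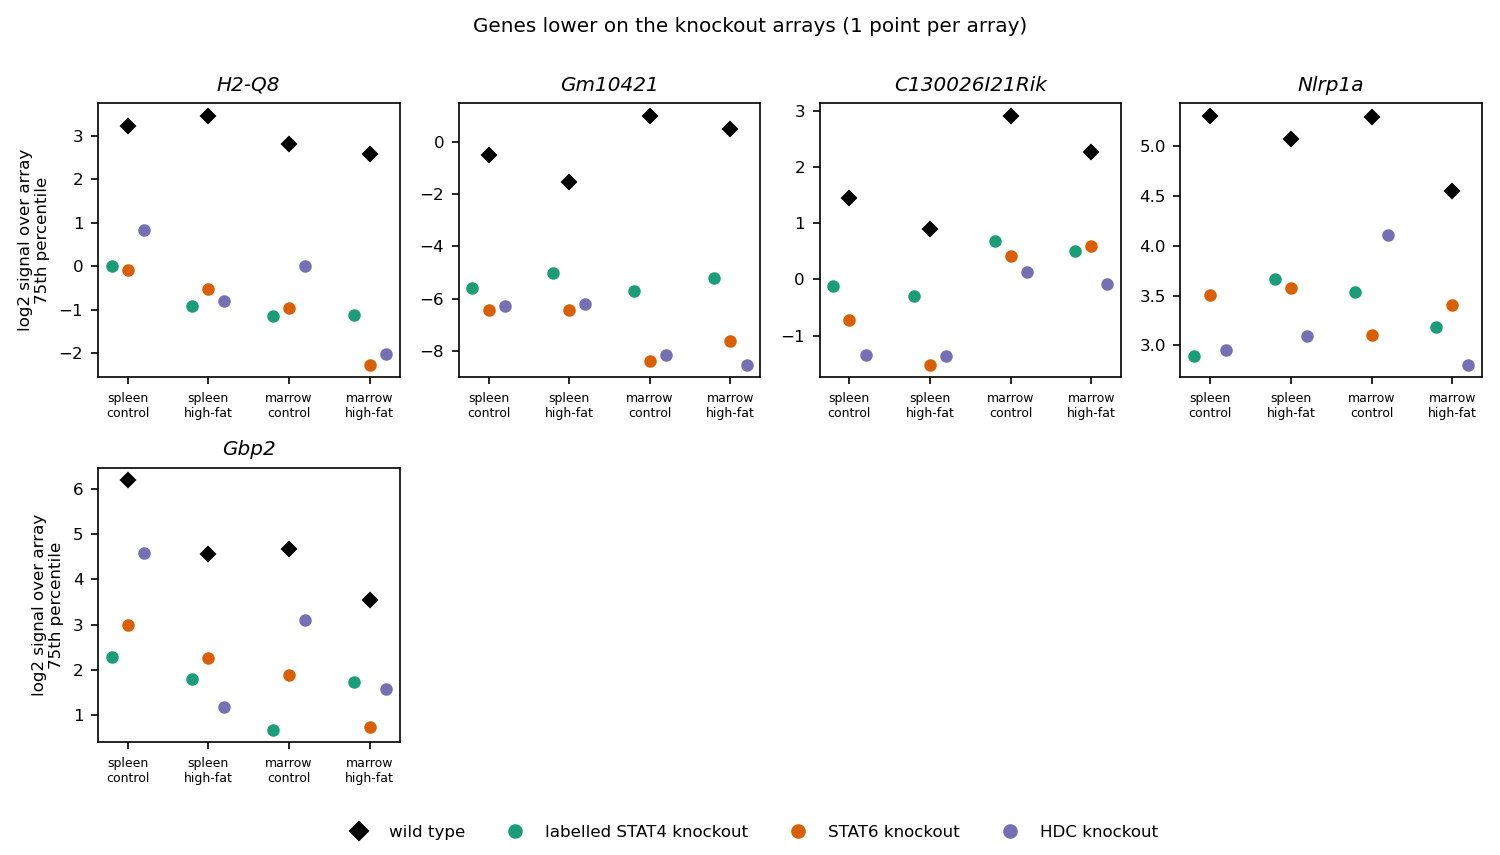
Levels (log2 signal over the 75th percentile of the array, y axis) of the 5 named genes called lower in the knockouts, by tissue and diet (x axis), with 1 point per array. The wild-type diamonds lie above the knockout arrays of the same tissue and diet in each panel; over all arrays, the arms overlap for Gbp2 alone, where HDC-/- spleen on the control diet reached 4.59.

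Gbp2, one of the interferon-gamma-induced GTPases that attack the vacuoles of intracellular pathogens, was the one called gene of a pathway in which many members had lower means. It read 6.19 and 4.56 in wild-type spleen, 4.67 and 3.56 in wild-type marrow and 0.68 to 4.59 (median 1.84) in the knockouts. The arms overlapped through the control-diet HDC-/- spleen array. The difference was -2.67 (SE 0.44, limma adjusted p 0.0445). Leaving out single arrays kept the call in 4 of 16 fits, each without a control-diet HDC-/- array or a marrow array labelled STAT4-/-, and gave an adjusted p of up to 0.291 in the others.

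All 10 measured guanylate-binding protein genes had negative differences, 1 of them called and 6 with all 12 matched differences negative (0.757% of all features were lower in that way). Their median was -1.94, beside 0.04 over all features. The neighbours Gbp2b (-2.57, SE 0.48, adjusted p 0.0854), Gbp3 (-1.54, SE 0.46), Gbp7 (-2.05, SE 0.57) and Gbp5 (-1.56, SE 0.55) lie in 1 cluster with Gbp2 on chromosome 3. The genes on chromosome 5 ranged from -0.61 (Gbp10) to -2.20 (Gbp8), so the 2 clusters overlapped in size of change. On the wild-type arrays the mean level of the family was 1.09 and 2.45 in spleen and -0.96 and -0.03 in marrow. On the knockout arrays it was -1.82 to 1.94 in spleen and -3.12 to -0.06 in marrow, and the highest value in each tissue belonged to HDC-/- on the control diet. Without the 2 arrays that stood apart from their tissue, the knockouts ran from -0.60 to 1.94 in spleen and from -3.12 to -2.17 in marrow.

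Among 17 measured interferon-gamma GTPases and targets, which include 6 of these genes, 16 differences were negative, 1 was called and 8 had all 12 matched differences negative; the median was -1.56. By knockout, the median was -2.14 on the arrays labelled STAT4-/-, -1.94 in STAT6-/- and -0.85 in HDC-/-, in each case against the same wild-type arrays. Igtp, another immunity-related GTPase, differed by -2.52 (SE 0.48, adjusted p 0.0938), and the transcription factor gene Irf1 by -1.03 (SE 0.18, adjusted p 0.0734) without overlap of the arms. Nos2 was the exception, at 0.84 (SE 0.44). Several genes of this kind stood just outside the threshold and were named after their values were seen. They are the class I transactivator gene Nlrc5 (-2.86, SE 0.53, adjusted p 0.0854), Cd274, which encodes the checkpoint ligand PD-L1 (-2.19, SE 0.40, adjusted p 0.0764), and the immunoproteasome gene Psmb9 (-1.11, SE 0.20, adjusted p 0.0742). The just-missed feature with the lowest adjusted p was Gdf3, a TGF-beta family ligand gene, which was higher in the knockouts by 3.24 (SE 0.56, adjusted p 0.0658), whereas the last called, Rpl39l and Gbp2, stood at 0.0445.

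The list for natural killer cells, a source of interferon-gamma, had no called gene. All 14 differences over both tissues were negative, with a median of -0.82. By tissue the median was -1.96 in spleen and 0.22 in marrow, or -2.07 and 0.52 under quantile normalization. By knockout it was -1.43 on the arrays labelled STAT4-/-, -0.90 in STAT6-/- and -0.07 in HDC-/-. The mean level of the list in spleen was 1.45 and 1.69 in wild type and -2.84 to 1.86 in the knockouts. In marrow it was -2.92 and -2.52 in wild type and -3.61 to -0.69 in the knockouts. The -2.84 and the -0.69 belong to the 2 arrays that stood apart from their tissue, without which the knockouts ran from -0.44 to 1.86 in spleen and from -3.61 to -1.85 in marrow. The part of these cells in the interferon-gamma values was not tested, and in bulk RNA fewer cells of a type and less RNA per cell cannot be told apart.

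**Figure D4:**
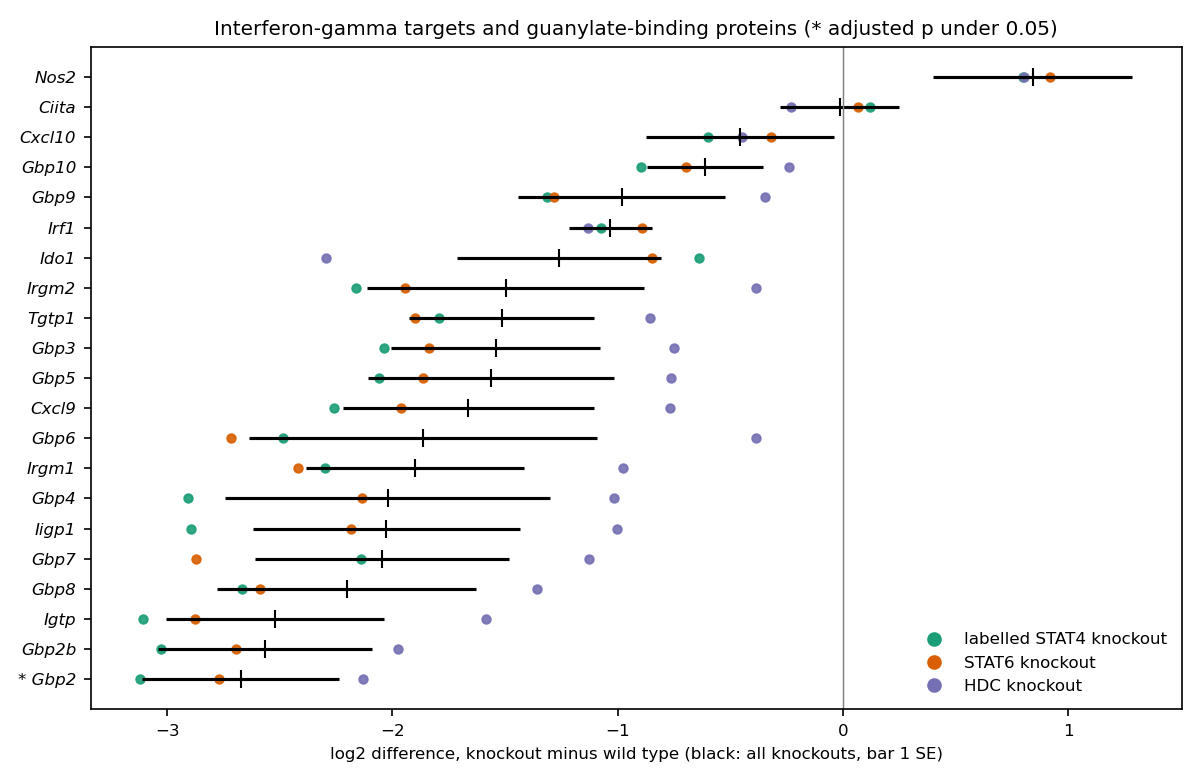
Differences from wild type (log2, x axis) of interferon-gamma targets and guanylate-binding protein genes (y axis), with coloured points for each knockout and a black mark with 1 SE for all knockouts together. Most marks lie left of 0, down to -2.67 for Gbp2, the one gene with an adjusted p under 0.05. HDC-/- points, which average control-diet and high-fat arrays of unlike level, lie nearest 0 for most genes.

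Type I interferon genes did not follow Oas1a. Of 23 measured, Oas1a was the only one with a positive difference and the only one called; the other 22 were negative and the list's median was -0.79. Zbp1, a nucleic acid sensor gene (-1.49, SE 0.43, adjusted p 0.665), was the one member with all 12 matched differences negative. By knockout the median was -1.18 on the arrays labelled STAT4-/-, -1.13 in STAT6-/- and -0.05 in HDC-/-. The mean level of the list was 1.27 to 2.41 on the wild-type arrays, 3.997 and 3.02 on the control-diet HDC-/- arrays of spleen and marrow, and 0.66 to 1.34 on the other 10 knockout arrays. This mean includes Oas1a, which lowers it on the wild-type arrays and raises it on the knockout arrays. The mean without Oas1a was not computed.

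The called genes had the same direction in each knockout. Taken one at a time against wild type, the arrays labelled STAT4-/- gave 25 called features (0.0869%), STAT6-/- 13 (0.0452%) and HDC-/- 57 (0.198%). In 10 features (0.0347%), all 3 knockouts were called with 1 sign, 6 higher (0.0208%) and 4 lower (0.0139%); the 3 comparisons share their wild-type arrays. The 10 are Oas1a, Ctps2, Oas1f, Ubtd1, Glo1, Oas1g, H2-Q8, Gm10421, C130026I21Rik and the probe A_55_P2011567, all among the 14. For Oas1a the differences were 10.41 on the arrays labelled STAT4-/-, 10.38 in STAT6-/- and 11.43 in HDC-/- (SE 0.44 each), and for Ctps2 they were 3.35, 3.33 and 2.96 (SE 0.22 each). H2-Q8 fell by 3.83, 3.99 and 3.52 in the same order (SE 0.36 each). The common count was 5 without the control-diet spleen array labelled STAT4-/- or either wild-type spleen array, and 6 without the high-fat spleen or control-diet marrow array labelled STAT4-/- or wild-type marrow on the high-fat diet.

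A moderated F test of equal differences in the 3 knockouts called 14 of all features (0.0486%) and none of the 14 features above, for which the lowest adjusted p was 0.481 (C130026I21Rik). The pooled fit that called those features counts spread between knockouts as error. Features that differ among knockouts were thus less likely to be called by it, and the lack of overlap is no separate evidence of equal differences. Of the 14 that differed among knockouts, 5 were chromosome 2 genes led by Rbbp9 (-5.13 in HDC-/- against 0.17 and 0.10 in the others) and Vps16 (6.14 against 0.11 and 0.09). Oasl2 was a further one, at -3.48 on the arrays labelled STAT4-/-, -3.24 in STAT6-/- and -0.10 in HDC-/- (adjusted p 0.0499). This count was 4 without the 4 arrays of low Y-linked signal.

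**Figure D5:**
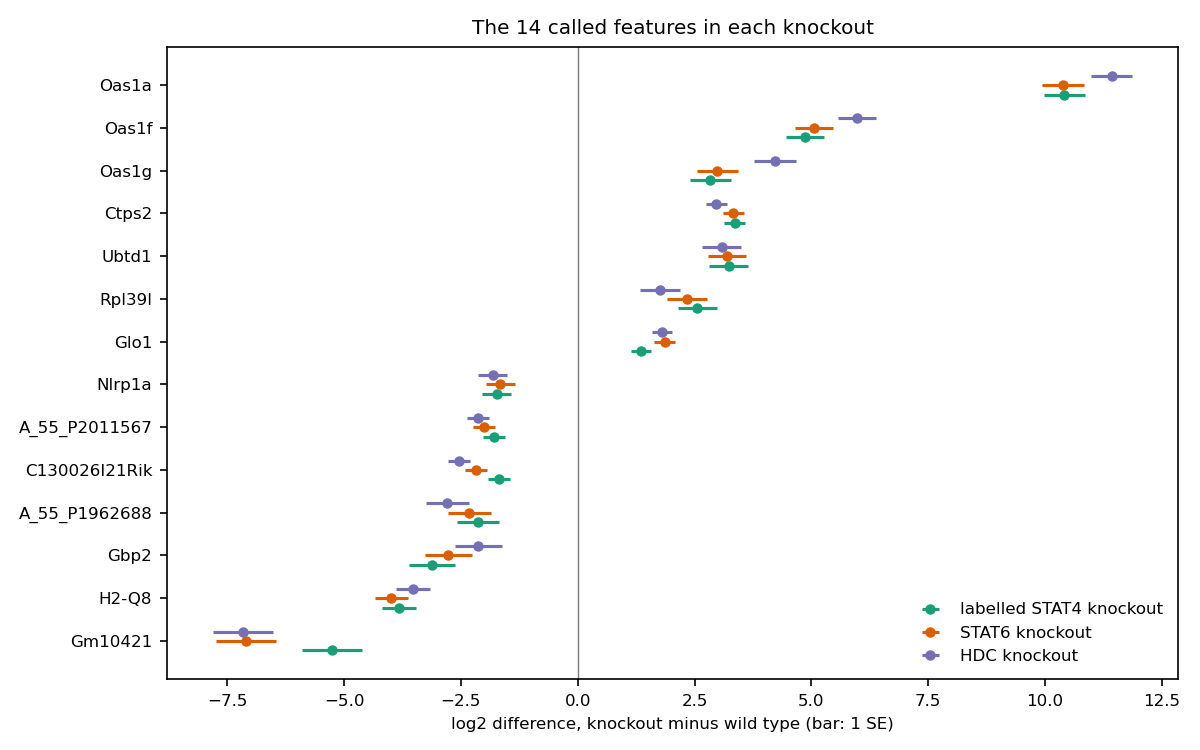
Differences from wild type (log2, x axis; bars 1 SE) of the 14 called features in each knockout (y axis, 3 coloured points per feature). The 3 points of a feature lie on the same side of 0 in all 14, and for Oas1a they lie between 10.38 and 11.43.

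Slides and single arrays bear on these calls. Slide as a fixed block leaves only the arrays labelled STAT4-/- as the contrast with wild type; 13 features were then called, 8 of them among the 14. The calls lost were those of Glo1 (adjusted p 0.0578), Gbp2 (0.062), Rpl39l (0.0698), Nlrp1a (0.0893), Oas1g (0.133) and A_55_P1962688 (0.165). Within the spleen slide and the marrow slide that wild type shared with STAT4-/-, the differences were 10.69 and 10.12 for Oas1a, 3.37 and 3.34 for Ctps2, 4.89 and 4.82 for Oas1f, and 3.72 and 2.74 for Ubtd1. They were -3.82 and -3.83 for H2-Q8, -4.31 and -6.21 for Gm10421, -1.38 and -2.0005 for C130026I21Rik and 1.26 and 1.44 for Glo1. For calls lost under the block they were -3.34 and -2.90 for Gbp2, -1.92 and -1.56 for Nlrp1a, 3.50 and 2.18 for Oas1g, and 1.99 and 3.13 for Rpl39l. Each of these pairs kept the direction of the 16-array fit, and with 2 arrays against 2 only Oas1a was called on either slide. Without the 4 arrays of low Y-linked signal, 35 features were called, 13 of them among the 14. The count was 9 without either wild-type spleen array and 31 without HDC-/- spleen on the control diet.

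No feature was called for a different effect in spleen and marrow with limma (0 of 28783; 7943, or 27.6%, at an unadjusted p under 0.05), nor for a different effect by diet (0; 401, or 1.39%, unadjusted). For the called features the lowest adjusted p was 0.0985 by tissue. The unadjusted share by tissue moved with the scaling: it was 27.6% with a median interaction of 0.52 under the 75th percentile, 9.98% with 0.10 under quantile normalization, and 19.9% with -0.07 under median scaling. The median difference of all features was 0.34 in spleen and -0.26 in marrow, or 0.07 and -0.06 under quantile normalization. Olfactory receptor genes, which are at or near background in blood cells, had medians of 1.05 in spleen and -0.87 in marrow, or 0.29 and -0.31 under quantile normalization.

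Outside the Oas1 cluster, no neighbour of a called gene was called in the gene order used. Within 5 places on either side of the 12 named genes, 98 genes not called themselves were measured, and all 12 matched differences went one way in 6 of them (6.12%, against 1.54% of all named genes). They are A530032D15Rik, Dnah8, Gbp2b, Gbp3, Rbbp7 and Sp8. The order put H2-Q8 near the start of its chromosome 17 list, with none of H2-Q4, H2-Q6, H2-Q7 and H2-Q10 within 5 places. The genes counted beside H2-Q8 may therefore not be its neighbours in the genome, which were not read. No chromosome held a run of 3 called neighbours.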

How the data were processed

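The deposited files hold intensity values: per the file headers, the arrays were read with Agilent Feature Extraction 11.0.1.1 by the authors; its processed signal is corrected within an array and not scaled between arrays. The files list 44397 spots per array. From these, flagged spots were left out (305 probes), log2 was taken and each array's 75th percentile subtracted. Probes were named through RefSeq accessions (27234 of 39429, 69.1%; design build older than the table, so places are gene order). Each symbol was read from its brightest probe, and stayed in if 2 or more arrays had it well above background.

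The fit used limma 3.58.1 in R 4.3.3 with arm, tissue and diet (12 residual degrees of freedom) or genotype, tissue and diet (10), two-sided; p-values treat arrays as replicates, though each genotype was read once per tissue and diet, so they measure the spread between these pools. The sample labels do not say whether spleen and marrow pools of a genotype and diet came from the same mice. Low Y-linked signal fell on the spleen and the marrow array alike in control-diet STAT4-/- and HDC-/-. The main fit did not pair such arrays. If the mice were shared, the arrays are not independent and the p-values are too small. The number of arrays limits precision. Alternatives changed the scaling, background correction, filter, probe, prior, model, slide block and arrays included; normexp used median spot signals in place of the planned means. Fits were tested on simulated data. Named genes were all called features with a symbol, members of listed families, neighbours and Stat4, Stat6, Hdc, Itgam and Y-linked genes. Members and lists were chosen with earlier results of these data known. Figures used matplotlib 3.10.9.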

Additional observations from a re-analysis of the deposited data

Results flagged for a closer look

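Within a genotype's 4 arrays, the called features were looked over for 1 array far from the other 3, in 56 groups, of which chance sets apart about 1 in 20; 2 stood out. Oas1f read -4.15 on wild-type spleen, control diet, against -3.01 to -2.87 on the other 3 wild-type arrays. The unnamed probe A_55_P1962688 read -4.66 on the control-diet spleen array labelled STAT4-/-, against -6.89 to -6.56 on the other 3 with that label.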

How the results depend on the processing

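No value of a called feature changed sign over the alternatives tried: of 556 values, 414 kept their call and 142 lost it, and Oas1a kept it in all 39 of its alternatives. The 14 calls became 23 with median scaling, 22 with normexp, 27 with probes above background on all 16 arrays, 34 with a trended robust prior and 24 with a mean for each genotype. They became 35 without the 4 arrays of low Y-linked signal, 23 without the 2 arrays nearer the other tissue (high-fat spleen labelled STAT4-/- and control-diet HDC-/- marrow), 8 without STAT6-/- and 50 without HDC-/-. Fits within a slide, tissue or diet, which used fewer arrays, gave 1 on each slide shared with STAT4-/-, 3 in spleen, 2 in marrow, 1 on the control diet and 4 on the high-fat diet. Leaving out 1 array gave 9 to 31. With tissue by diet as the replicate block 11 features were called, and 8 in place of 10 in all 3 knockouts; the title numbers mark tissue and pair no samples, and the block lost the calls of Gbp2, Rpl39l and A_55_P1962688. The 10 common features became 5 without the low-Y arrays, 4 without the 2 arrays and 5 to 11 without single arrays; the 14 that differed among knockouts became 4 and 3. The 396 features with every matched difference one way became 1453 and 620 without those arrays, where fewer differences were matched. They became 1011 without STAT4-/-, 1011 without STAT6-/-, 848 without HDC-/-, 2369 on the control diet and 3501 on the high-fat diet. Without single arrays they became 416 to 1564. The count was 10721 in spleen (9552 higher, 1169 lower) and 5552 in marrow (853 higher, 4699 lower). Under quantile normalization, 4174 were higher and 2253 lower in spleen, and 1748 higher and 2907 lower in marrow. The counts by tissue thus moved with the scaling as well as with the number of differences. The cause of the other moves was not tested. Dim probes limit Oas1a, Oas1g and Gm10421, whose lower arm lies at or near background, and with normexp the dim Oas1g, Rpl39l and A_55_P1962688 lost their calls (0.68, 1.04 and -0.93). The replicate block for 8 common features and the scaling values of the tissue interaction were added after seeing the data.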

Other observations

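The gene lists given here had no called member, and their counts are given as a description beside the median of 0.04 over all features (16034 differences positive, 12749 negative). Of 25 cell cycle genes 24 were positive, with a median of 0.64 that was 1.09 in spleen and 0.15 in marrow; their mean level in wild-type spleen was 0.35 and 0.56 and in knockout spleen 0.15 to 2.36, or 0.15 to 1.90 without the high-fat spleen array labelled STAT4-/-, which stood apart from its tissue. All 13 measured erythroid genes (median 0.82), all 11 eosinophil genes (0.95) and all 16 red pulp macrophage genes (0.61) were positive. None of them had all 12 matched differences one way (1.38% of all features did). Mean levels overlapped between the arms. They were -0.68 to 1.76 in wild type and -0.57 to 3.295 in the knockouts for erythroid genes. For eosinophil genes they were -0.33 to 0.64 and -1.09 to 3.40, and for red pulp macrophage genes -1.82 to -0.10 and -1.97 to 1.25. The erythroid median was 1.096 on the arrays labelled STAT4-/-, 1.67 in STAT6-/- and 0.30 in HDC-/-, and the eosinophil median 1.33, 1.51 and 0.11.

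Immediate early genes, which respond within minutes to stimulation, were negative in 15 of 15 (median -0.59; -1.20 in HDC-/-). Their mean level was 3.58 to 3.84 on the wild-type arrays and 1.38 to 3.54 on the knockout arrays. The means did not overlap, by a narrow margin (3.58 against 3.54), but each of the 15 genes alone overlapped between the arms. None of the 15 had all 12 matched differences negative (0.757% of all features did). Inflammatory cytokine and NF-kB feedback genes were negative in 17 of 17 (median -0.64), and cholesterol synthesis genes positive in 15 of 18 (median 0.32), with 2 that had all 12 matched differences positive (0.618% of all features). B cell genes were negative in 16 of 16 (median -0.47), with a spleen median of -0.85 and a marrow median of -0.12. By knockout the median was -0.91 on the arrays labelled STAT4-/-, -0.45 in STAT6-/- and 0.06 in HDC-/-. The mean level in spleen was 2.46 and 2.75 in wild type and -0.69 to 2.93 in the knockouts. Without the high-fat spleen array labelled STAT4-/-, the knockouts ran from 1.76 to 2.93.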
